A study of Caenorhabditis elegans with 2 samples.

Results

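The potassium channel genes of the nematode Caenorhabditis elegans were examined for LIN-14 occupancy in first-stage larvae. They were chosen by gene symbol, as every protein-coding gene named twk-, kvs-, kqt-, irk- or slo- with a number, plus egl-2, egl-23, egl-36, unc-103, unc-58, exp-2, shk-1, shl-1 and sup-9. This gave 66 of the 19973 protein-coding genes on the 6 chromosomes. The naming rule uses no measured value, though it was set with earlier results of these data known.

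The measurements were peak lists from chromatin immunoprecipitation sequencing (ChIP-seq), which maps where a protein sits on chromatin. The 2 samples were biological replicates of 1 group, whole animals at stage L1, males and females pooled, at 6 hours. They had been synchronised as L1 larvae starved once bleached, and the labels do not say whether feeding followed. The strain, OP768, was an unc-119(tm4063) mutant with the insertion wgls768, which carries lin-14::TY1::EGFP::3xFLAG and unc-119(+), and the tagged protein was precipitated through its GFP. The transgene adds lin-14 copies to the worm, and whole animals do not show in which cells a site was occupied. There was no second condition, so the comparisons are between these genes and all protein-coding genes within the same lists. Replicate 1 had 25357 peaks and replicate 2 had 27170. The list that passed the irreproducible discovery rate (IDR) threshold had 11507 peaks, which merged into 11115 regions. Each score is the strength given by the authors' peak caller. The sources used here give no scale for it, read depth is unknown, and scores ran lower in the replicate lists than in the thresholded list. A score in the thresholded list is given first below, with the values in replicates 1 and 2 after it.

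Potassium channels let potassium leave or enter cells and so set the resting voltage, end action potentials and limit calcium entry in neurons and muscle. Tandem-pore (K2P) channels, the twk genes with sup-9, egl-23 and unc-58, carry a background leak and form an unusually large family in this worm. Voltage-gated (Kv), KCNQ, EAG and ERG channels open on depolarisation, inward rectifiers pass current near the resting voltage, and Slo channels respond to voltage and to calcium or other ions. LIN-14 is a nuclear protein that specifies events of the first larval stage.

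LIN-14 regions lay in the promoters of many potassium channel genes, but most were of low score. A promoter window ran from 1000 bp upstream to 200 bp downstream of any annotated transcript 5′ end, and a gene was counted when a summit fell in it. This was so for 25 of 66 potassium channel genes (37.9%, 95% exact binomial interval 26.2 to 50.7%), against 23% of all protein-coding genes. Among all genes with a symbol of 3 or 4 letters and a number, as these have, it was 27.5%, which lies inside that interval. The median of the highest promoter score was 259 among those 25 genes, with a range of 151 to 1082, against 527 among all 4592 genes with a promoter region. Only 4 of the 25 were above that median of all genes, namely shk-1, twk-43, sup-9 and twk-24. A score of 1000 or more was reached by 8.0% of the 25 and by 23.3% of all genes with a promoter region. When only the stronger 50% of all regions was kept, 8 potassium channel genes (12.1%) had a promoter region, against 15.3% of all genes. At that threshold the potassium channel share was the lower one, on a count of 8 genes and without an interval. These shares and medians are descriptions, and no test of the list was made.

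**Figure D1:**
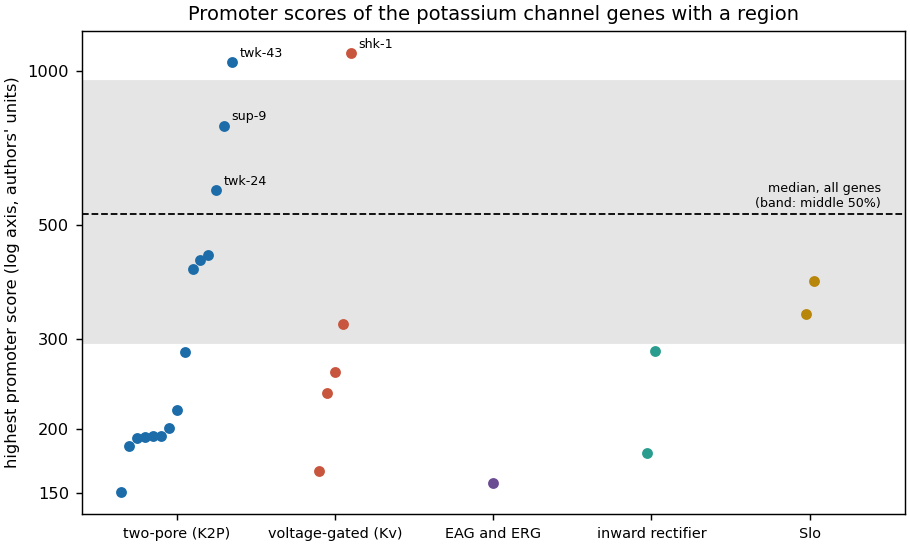
Highest promoter score of each of the 25 potassium channel genes with a LIN-14 region in a promoter window, by channel class, on a log axis in the authors' units (1 point per gene; KCNQ genes had none). The dashed line is the median of all protein-coding genes with a promoter region (527) and the band their middle 50% (294 to 957); 21 of the 25 points lie below the line.

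The gene models differed too. Potassium channel genes were longer than protein-coding genes in general, with a median of 6233 bp against 2027 bp, and had a median of 2 distinct 5′ ends against 1. Among genes with 1 distinct 5′ end, 8 of 28 potassium channel genes (28.6%) had a promoter region, against 17.9% of all genes. Among genes with 2 or more, it was 17 of 38 (44.7%), against 36.5% of all genes. Among genes of 5 kb or longer, a bound chosen after seeing the data, it was 17 of 40 (42.5%) against 36.3%. The intervals of these potassium channel shares (13.2 to 48.7%, 28.6 to 61.7% and 27.0 to 59.1%) all hold the share of all genes beside them. Among genes with a 3 or 4 letter symbol, the promoter shares were 21.1% with 1 distinct 5′ end and 42.1% with 2 or more. With only the outermost 5′ end of each gene, 17 of 66 potassium channel genes (25.8%) had a promoter region, against 20.9% of all genes. The 8 genes lost in that way, with a region only at an inner 5′ end, were twk-1, twk-13, twk-49, unc-58, kvs-2, kvs-5, unc-103 and irk-3.

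The 33 promoter regions of these genes were near their own 5′ ends by the choice of window, which is mostly upstream. Distances over all genes are not given beside them. The median distance of the 33 was 196 bp, with 31 summits upstream of the nearest 5′ end and 2 downstream of it. Over all annotated transcripts of the gene, 16 were upstream of the gene, 15 in introns and 2 in 5′ UTRs. For each of the 33 the nearest 5′ end of a protein-coding gene was the channel gene's own. One was also in the window of another gene, that of sup-9, which lay 482 bp from a 5′ end of nspf-1. In 18 of the 33 (54.5%) the region had the commonest width in the list, 410 bp, against 26.0% of the promoter regions of all genes. Those 18 scored from 151 to 321, and each of the 33 with a higher score had another width. Whether width differed apart from score was not tested.

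The sequences around the strongest promoter summit of 5 genes are shown, since these genes had the highest promoter scores in the family. Each is 101 bases of the gene's own strand from the RefSeq copy of WBcel235 (ce11), with the summit in the middle. Capitals mark GAGAGA on either strand, one of the words searched.
shk-1, chrII:9757745-9757845, plus strand: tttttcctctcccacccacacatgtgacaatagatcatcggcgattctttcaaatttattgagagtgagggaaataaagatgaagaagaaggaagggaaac
twk-43, chrV:13346032-13346132, plus strand: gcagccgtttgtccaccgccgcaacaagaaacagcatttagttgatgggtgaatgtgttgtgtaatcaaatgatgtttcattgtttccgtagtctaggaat
sup-9, chrII:2687093-2687193, minus strand: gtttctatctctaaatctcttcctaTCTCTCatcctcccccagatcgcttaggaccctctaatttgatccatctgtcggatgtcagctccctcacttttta
twk-24, chrV:12269551-12269651, minus strand: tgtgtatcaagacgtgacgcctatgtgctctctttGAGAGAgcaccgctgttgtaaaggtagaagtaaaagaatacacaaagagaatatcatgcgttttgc
twk-2, chrII:4453558-4453658, minus strand: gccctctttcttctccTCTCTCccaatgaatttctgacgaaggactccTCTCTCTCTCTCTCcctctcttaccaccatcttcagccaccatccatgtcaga
The windows of sup-9, twk-24 and twk-2 held GAGAGA, with 6 occurrences in twk-2, most of them overlapping. None of the words searched was in the windows of shk-1 and twk-43.

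GAGAGA or its reverse complement was in 10 of 33 promoter windows of potassium channel genes (30.3%), against 27.4% of the promoter regions of all genes. Over all 110 regions near potassium channel genes it was in 20.0%, against 26.8% of all 11115 regions. Windows of the same length 300 bp to either side of those 110 summits held it in 5.91% of cases, and those beside all summits in 5.46%. A sequence described for LIN-14, GAAC followed by a purine and a pyrimidine (GAACAC or GAACAT or GAACGC or GAACGT), was in 3 of the 33 windows (9.09%), against 14.8% of the promoter regions of all genes. Over the 110 regions it was in 11, against 12.6% of all regions. The windows to either side held it in 17.3% of cases for the 110 and in 15.2% for all summits. CGCGC was in 5 of the 33 (15.2%), against 18.2%. Both strands were searched for each word, and CGCGC can overlap the GAACGC form. The median GC content was 41.6% in the 33 windows and 44.6% in the promoter regions of all genes. It was 42.6% at the 110 summits and 33.2% to either side of them, and 43.6% and 33.7% for all regions. A match describes the letters and not a binding site.

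The Shaker-type channel gene shk-1, which repolarises neurons and muscle, had the highest promoter score of the family, 1082 (replicates 612 and 474). The gene is on chromosome II and has 6 distinct 5′ ends. Its summit at 9757795 lay 437 bp upstream of the outermost 5′ end, and the region ranked 1361 of 11115. A weaker region of 185 lay in an intron, 62 bp upstream of an inner 5′ end. Both replicates held both regions, and shk-1 was the single Kv gene above the median of all genes.

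Next was twk-43, a K2P gene on chromosome V, with 1039 (replicates 526 and 516) at 196 bp upstream. A region of 465 (replicates 245 and 207) lay 278 bp upstream of an inner 5′ end, in an intron 5709 bp inside the gene. Another, of 448 (replicates 255 and 187), was 353 bp downstream of an inner 5′ end and outside the windows. All 3 regions of twk-43 were thus close to annotated starts.

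The promoter of sup-9, a K2P channel that acts in muscle with UNC-93 and SUP-10, had 782 (replicates 449 and 338). Its summit at 2687143 on chromosome II was 116 bp upstream. This was the only region from 5 kb upstream to 1 kb downstream of the gene. Likewise twk-24 had 1 region, of 586 (replicates 335 and 249), 279 bp upstream on chromosome V. Each of these genes thus had a single region, at its 5′ end.

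Lower promoter scores were found at twk-2, twk-49, twk-48 and twk-20, which are also K2P genes. The promoter region of twk-2 scored 437 (replicates 260 and 195) at 457 bp upstream. A stronger region of twk-2, of 814 (replicates 478 and 341), lay 3118 bp upstream and outside the window. The promoter region of twk-49 scored 428 (replicates 212 and 210) in an intron, 131 bp upstream of an inner 5′ end. At twk-48 the score was 411 (replicates 241 and 169), 239 bp upstream. The gene twk-20 had 283 (replicates 151 and 137), 233 bp upstream.

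Both Slo genes had promoter regions. The calcium-activated channel gene slo-1, a regulator of transmitter release, had 335 at 178 bp upstream, and its replicates differed more than most, with 240 and 98.4 (1.29 on the log2 scale, replicate 1 over replicate 2). Its relative slo-2 had 3, one of 388 (replicates 199 and 180) at 194 bp upstream and others of 278 and 263 at inner 5′ ends. Between 2 and 4 kb upstream slo-2 had a further pair, of 310 and 329, whose nearest 5′ end is that of F08B12.4.

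To complete the 12 highest, the Kv gene kvs-2 had 321 (replicates 177 and 139) at an inner 5′ end, 52 bp upstream of it. The inward rectifier gene irk-3 had 285 (replicates 168 and 127), 694 bp upstream of an inner 5′ end and 10655 bp inside the gene. Both lay in introns.

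The other 13 genes with a promoter region had highest promoter scores from 151 to 259. They were kvs-3 (259), exp-2 (235), twk-1 (218), twk-13 (201), twk-25 (194), twk-5 (193), twk-10 (193), twk-32 (192), unc-58 (186), irk-1 (179), kvs-5 (166), unc-103 (157) and twk-8 (151). Some had stronger regions outside the promoter windows, within 5 kb upstream to 1 kb downstream of the gene. These scored 717 at twk-8, 688 at kvs-5, 544 at unc-103, 531 at unc-58, 451 at twk-13, 419 at twk-5 and 209 at irk-1. Those of twk-8 and twk-5 had another gene's 5′ end nearest. At the rest of the 13 the promoter score was the highest. The lowest score in the whole list of regions was 147. The Kv channel gene exp-2, which shapes action potentials of the pharynx, had 3 promoter regions (198, 235 and 151) spread over its 11 distinct 5′ ends, and its summits also lie within the gene model of ttn-1. The summit of twk-10 lies within lipl-4. The region of twk-8 had no summit within 100 bp in replicate 2.

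**Figure D2:**
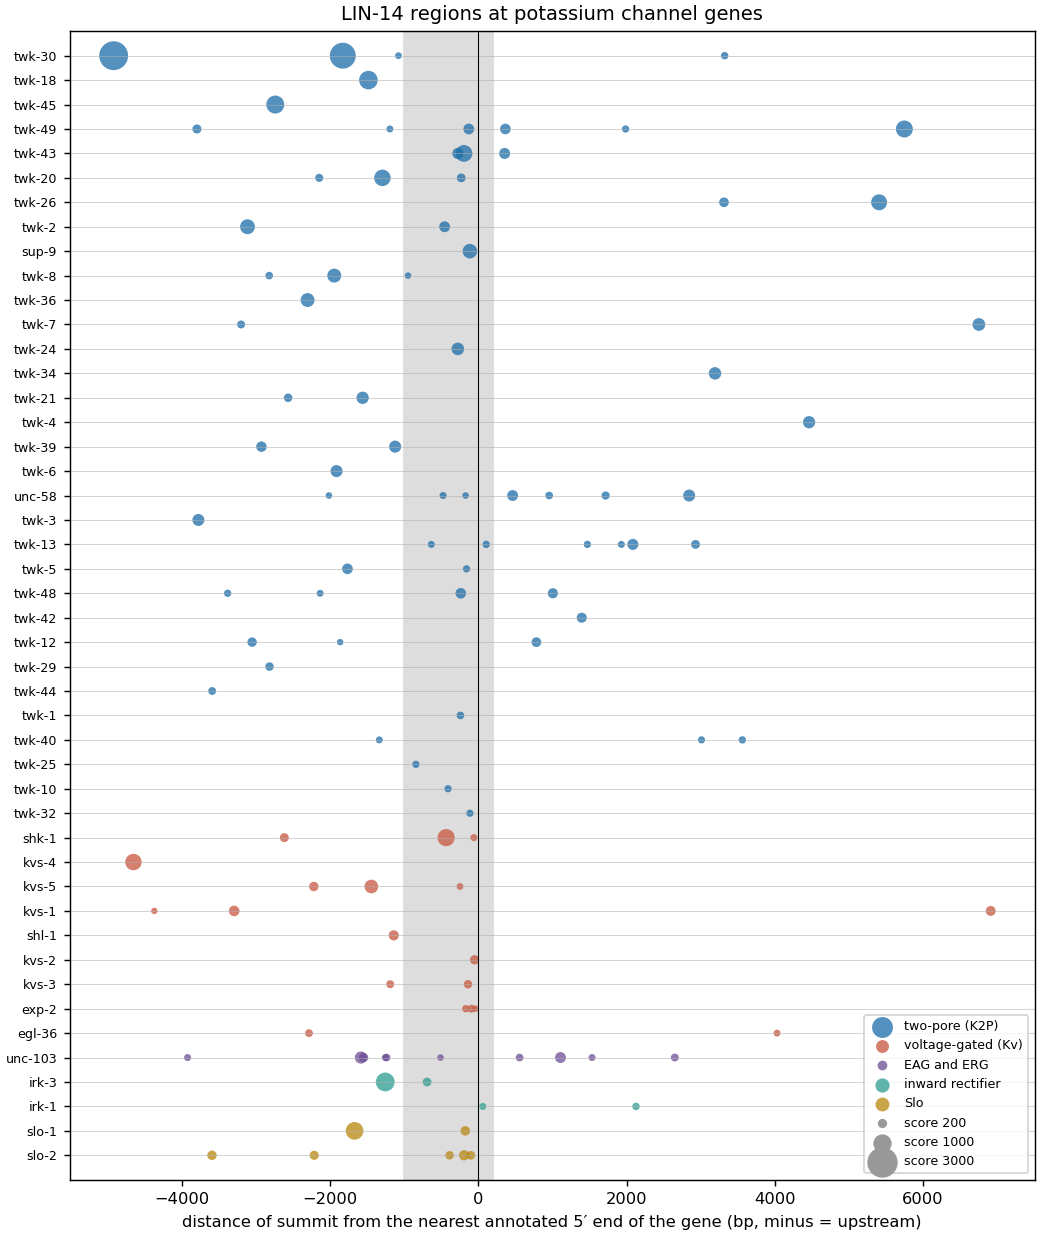
Every LIN-14 region from 5 kb upstream to 1 kb downstream of the 46 potassium channel genes that had one; each row is a gene, the horizontal axis is the distance of the summit from the gene's nearest annotated 5′ end in bp (minus is upstream), point area is proportional to the score and colour gives the channel class. The shaded band is the promoter window; 33 of the 110 points lie in it, and those with scores of 1000 or more outside it include twk-30, irk-3, twk-18, twk-45 and slo-1.

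Over a wider span more of the family had a LIN-14 region. From 5 kb upstream of the gene to 1 kb downstream of it, 46 of 66 potassium channel genes (69.7%, interval 57.1 to 80.4%) had at least 1, against 45.1% of all protein-coding genes. Of genes with a 3 or 4 letter symbol, 49.0% had one. These spans were longer for potassium channel genes, with a median of 12.2 kb against 8.03 kb. Among genes of 5 kb or longer the shares were 70.0% (interval 53.5 to 83.4%) and 63.2%, and among shorter genes 69.2% (interval 48.2 to 85.7%) and 41.6%. Counted per kb, potassium channel genes had a median of 0.0996 regions. The median over all genes was 0, since fewer than 50% of them had any region. From 10 kb upstream to 2 kb downstream the medians were 0.104 and 0.0693 regions per kb. The 110 regions in these spans included 77 outside promoter windows, of which 39 were upstream of the gene, 31 in introns, 1 in a coding exon and 6 downstream. For 33 of the 77 the nearest 5′ end belonged to another protein-coding gene.

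In 33 of the 46 potassium channel genes with a region over the wide span (71.7%), the strongest lay outside the promoter window, close to the 67.1% of all genes. Of 8 regions outside promoter windows with a score of 1000 or more, 4 had the channel gene's own 5′ end as the nearest. The sequences of these 4 are given for comparison with the promoter windows, again from RefSeq and on the strand of the gene. None held a word searched, so they have no capitals.
irk-3, chrX:14356991-14357091, minus strand: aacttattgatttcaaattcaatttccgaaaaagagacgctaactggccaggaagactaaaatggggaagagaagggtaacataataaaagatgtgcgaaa
twk-18, chrX:8986592-8986692, plus strand: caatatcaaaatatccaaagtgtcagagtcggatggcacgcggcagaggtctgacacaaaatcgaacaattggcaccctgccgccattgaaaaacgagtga
slo-1, chrV:18490538-18490638, plus strand: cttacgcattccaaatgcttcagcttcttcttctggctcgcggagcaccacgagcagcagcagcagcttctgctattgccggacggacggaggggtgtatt
twk-20, chrX:13638530-13638630, plus strand: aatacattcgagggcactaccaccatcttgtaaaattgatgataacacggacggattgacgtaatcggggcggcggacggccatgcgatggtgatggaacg
The first lies in an intron and the others upstream of their genes.

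At irk-3, on chromosome X, the region scored 1305 (replicates 665 and 641) and lay 1259 bp upstream of an inner 5′ end, 13373 bp inside the gene. It was the strongest with an own 5′ end nearest, at rank 1009. At twk-18, a K2P channel of body wall muscle, the region scored 1270 (replicates 643 and 643), 1486 bp upstream. It was the single region of twk-18, which had none in its promoter window.

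The slo-1 region scored 1151 (replicates 720 and 438) at 1673 bp upstream, against 335 in the promoter window of that gene. At twk-20 the values were 1002 (replicates 561 and 458) at 1297 bp upstream, against 283 in its promoter. In each of these genes the upstream region exceeded the promoter region in both replicates.

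The other 4 strong regions were nearer to other genes. The highest score near any potassium channel gene, 3068 (replicates 1654 and 1424), lay 4925 bp upstream of twk-30 but 379 bp upstream of rps-15, which encodes a ribosomal protein. A second at twk-30, of 2474 (replicates 1407 and 1071), lay 1832 bp upstream of it and 282 bp upstream of F36A2.7. The region of 1193 (replicates 694 and 500) at 2743 bp upstream of twk-45 was 787 bp upstream of Y71H2AM.3. A region of 1060 (replicates 595 and 463) downstream of twk-49 lay 25 bp inside T28D9.11. Which gene such a region serves was not tested.

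After twk-30, twk-18 and twk-45, the genes with the highest scores among those without a promoter region were kvs-4, twk-26 and twk-36. The Kv gene kvs-4 had 995 (replicates 607 and 401) at 4658 bp upstream, where the nearest 5′ end is that of fipr-17. At twk-26 a region of 937 (replicates 531 and 425) lay downstream of the gene. At twk-36 one of 713 (replicates 389 and 331), 2307 bp upstream, was 123 bp upstream of R12G8.1.

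Of the other 15 genes with regions only outside the promoter window, the highest scores ran from 198 to 600. They were twk-7 (600), twk-34 (571), twk-21 (557), twk-4 (556), twk-39 (541), twk-6 (536), twk-3 (526), kvs-1 (411), shl-1 (382), twk-42 (375), twk-12 (349), twk-29 (265), twk-44 (227), egl-36 (225) and twk-40 (198). For the listed regions of twk-7, twk-34, twk-4, twk-6, twk-3, kvs-1, twk-29, twk-44 and twk-40 the nearest 5′ end was another gene's. Those of twk-6 and twk-3 also lay in promoter windows of neighbouring genes. Here shl-1 encodes the Shal-type Kv channel, and its region was 1144 bp upstream, just beyond the window. The stronger region of twk-39 was 1125 bp upstream, and another, of 404, was 2930 bp upstream. The Shaw-type gene egl-36 had 2 weak regions, and that of twk-34, in a coding exon, was matched in replicate 2 only.

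The channel classes differed in their counts, with wide intervals. With a promoter region there were 15 of 47 K2P genes (31.9%, interval 19.1 to 47.1%) and 10 of 19 other channel genes (52.6%, interval 28.9 to 75.6%). Those 10 were 5 of 9 Kv genes, 2 of 3 inward rectifiers, both Slo genes and 1 of the 2 EAG and ERG genes, and no KCNQ gene. Over the wide span they were 32 of 47 K2P genes (68.1%) and 14 of 19 others (73.7%), including all 9 Kv genes. For the single region of kvs-4 and all 3 of kvs-1, the nearest 5′ end was another gene's. The difference between K2P genes and the others was not tested, and with the stronger 50% of the regions the shares were 12.8 and 10.5%. The others also had more distinct 5′ ends, with a median of 3 against 1 in K2P genes. Their wide spans were longer too, with a median of 17.5 kb against 10.6 kb.

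**Figure D3:**
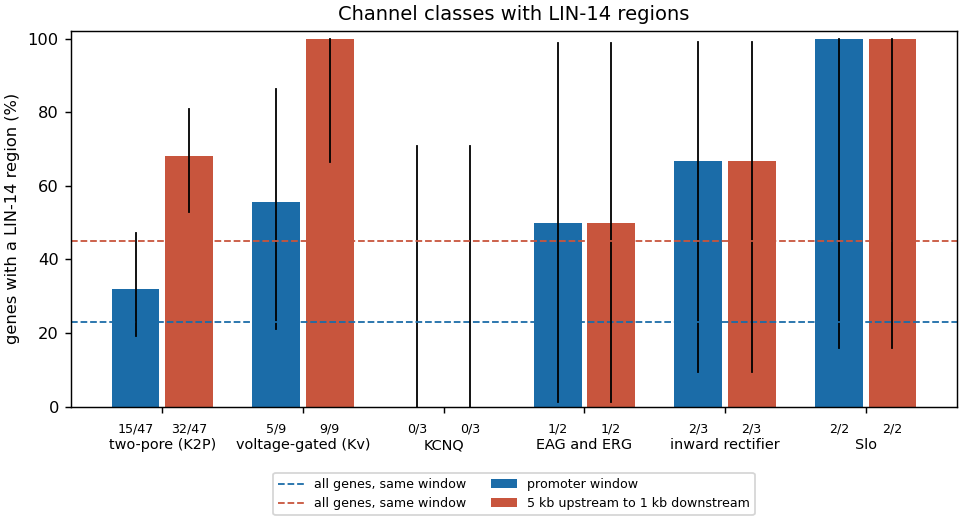
Share of genes in each channel class with a LIN-14 region in the promoter window (blue) or from 5 kb upstream to 1 kb downstream (red), with counts under the bars and 95% exact binomial intervals as lines. Dashed lines give the shares of all protein-coding genes for the same windows, 23% and 45.1%; all 9 Kv genes and none of the 3 KCNQ genes had a region in the wider span.

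The longest 2 genes carried several regions each, while the next longest, egl-23 (22994 bp), had none. The ERG channel gene unc-103, which spans 31894 bp with 10 distinct 5′ ends, had 10 regions with scores from 157 to 544. The K2P gene unc-58 (28573 bp) had 7, the strongest of 531 (replicates 337 and 177) in an intron. The K2P genes twk-13 and twk-49, which are shorter, had 6 each. Per kb, unc-103 had 0.264 and unc-58 had 0.203 regions.

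No region was found over the wide span of 20 genes. These were the 3 KCNQ genes kqt-1, kqt-2 and kqt-3 (0%, with an upper bound of 70.8%), the EAG gene egl-2, the inward rectifier gene irk-2, and 15 K2P genes. The K2P genes were egl-23, twk-9, twk-11, twk-14, twk-16, twk-17, twk-22, twk-23, twk-28, twk-31, twk-33, twk-35, twk-37, twk-46 and twk-47. For 14 of the 20 the pooled list, called on both replicates together and not thresholded, had no peak there, egl-2, irk-2, egl-23, kqt-1 and kqt-3 among them. For the other 6 it had at least 1. The matching share over all genes without a region was not computed. Over the whole family the pooled list placed a peak in the promoter window of 38 of 66 genes (57.6%), against 31.7% of all genes, and in the wide span of 52 of 66 (78.8%), against 51.5%. So 13 potassium channel genes had a promoter peak in the pooled list alone.

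The shares varied by chromosome. On autosomes 20 of 47 potassium channel genes (42.6%, interval 28.3 to 57.8%) had a promoter region, against 21.3% of all autosomal genes. The autosomes did not all lie on the same side. With a promoter region there were 5 of 8 potassium channel genes on chromosome II, 3 of 6 on IV and 9 of 19 on V, against 23.5, 18.7 and 16.9% of all genes there. On chromosome I it was 1 of 5 and on III 2 of 9, below the 23.6 and 27.3% of all genes there. On the X it was 5 of 19 (26.3%, interval 9.15 to 51.2%), against 33.9% of all X-linked genes. The X-linked genes with a promoter region were irk-1, irk-3, slo-2, twk-20 and unc-58. The difference between X and autosomes was not tested.

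The replicates held nearly all of these regions. Of the 110, 107 had a summit within 100 bp in both replicate lists, and the exceptions were 1 region each at twk-8, twk-30 and twk-34. Both lists entered the thresholded list, so this match is no independent measure. The score was higher in replicate 1 for 93 of the 107. The median log2 ratio, replicate 1 over replicate 2, was 0.32 with an SD of 0.34, against 0.35 with an SD of 0.37 over all regions. After the median shift of all regions 1 of the 107 differed by over 2-fold, a region of exp-2 with 56.5 in replicate 1 and 90.6 in replicate 2. Over all regions it was 226 of the 10785 matched in both replicates (2.1%). In 14 of the 107 regions replicate 2 was higher.

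**Figure D4:**
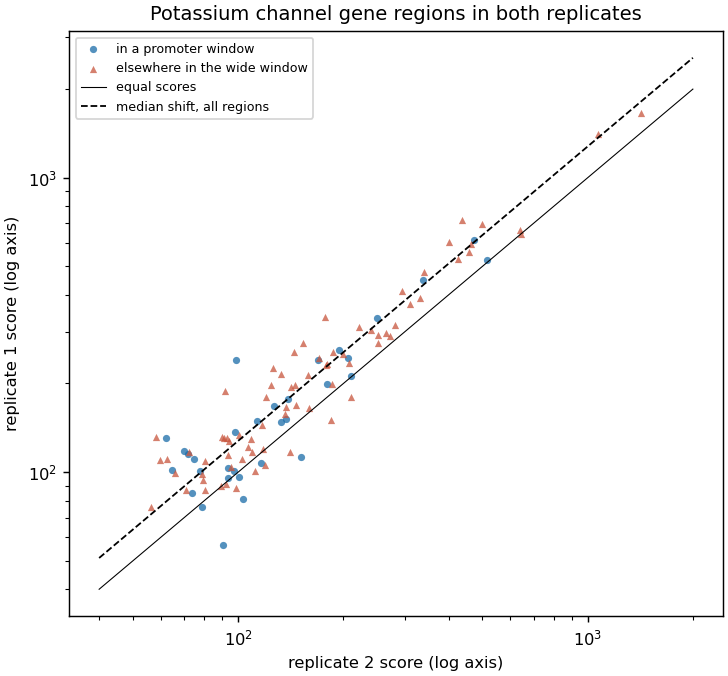
Scores of the 107 regions near potassium channel genes matched in both replicates, replicate 1 on the vertical axis and replicate 2 on the horizontal, both on log axes in the authors' units. Circles are regions in a promoter window and triangles the others; the solid line marks equal scores and the dashed line the median shift over all regions (0.35 on the log2 scale), around which the points lie.

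Genes of potassium channel function outside the naming rule were also read. Of 6 further channel genes, the Shaw-type shw-1 and shw-3 and the small-conductance calcium-activated kcnl-1 to kcnl-4, 2 had a promoter region, shw-1 (152) and kcnl-2 (328). All 6 had a region over the wide span, where 45.1% of all genes had one, with highest scores from 180 to 378. Of 14 genes for subunits and partners, 3 had a promoter region and 9 a region over the wide span, beside 23% and 45.1% of all genes. The count of promoter regions among these partners is thus near that of genes in general. The promoter of sup-10, whose product regulates SUP-9, had 635 (replicates 353 and 291), 44 bp upstream. Those of stn-1, for a syntrophin, and islo-1, which helps to place SLO-1 in muscle, had 547 (replicates 332 and 225) and 495 (replicates 263 and 226). The islo-1 region is also in the window of isp-1. Outside the windows, dyb-1, for dystrobrevin, had the highest score of this list, 1648, at 1403 bp upstream. The region of sup-18, also in this list, scored 703 at 1603 bp upstream. No region lay near unc-93, whose product acts with SUP-9, or near mps-1, mps-3, mps-4 and erg-28.

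Ligand-gated ion channel genes, another large channel group, were taken by the symbols acr-, lgc-, glr-, nmr- and glc-. A promoter region was found for 37.9% of the potassium channel genes, against 18 of these 91 genes (19.8%, interval 12.2 to 29.4%). Over the wide span the shares were 69.7% for potassium channel genes and 54.9% for ligand-gated channel genes. The intervals overlap, and the difference was not tested.

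**Figure D5:**
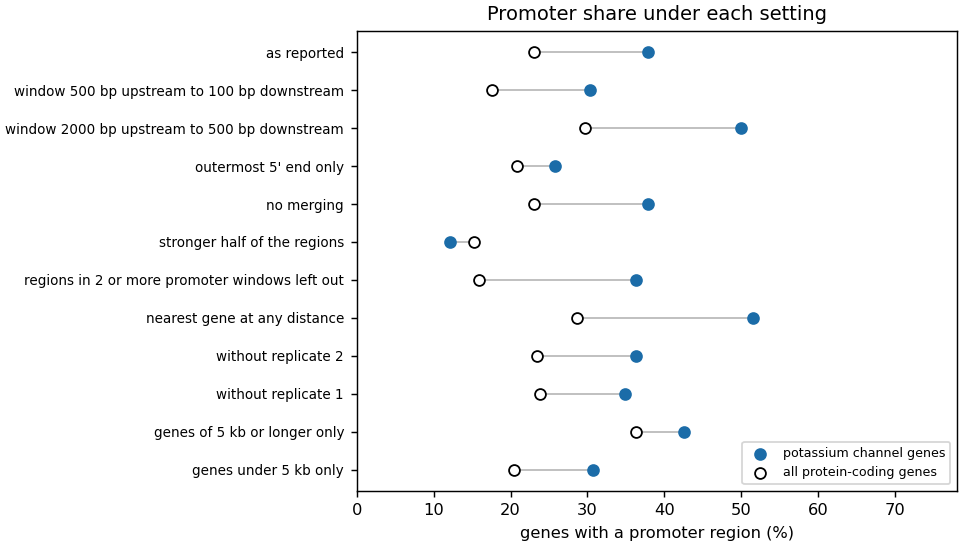
Share of potassium channel genes (filled) and of all protein-coding genes (open) with a promoter region, in percent, under the reported setting and each alternative, 1 row per setting. The filled point lies to the right of the open one in each row except with the stronger 50% of the regions, where it was 12.1% against 15.3%.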

How the data were processed

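Per the README files of the samples, 4 peak lists in ce11 coordinates were made: 1 for each replicate, 1 from both alignments and 1 that passed an IDR threshold. Which programs aligned reads and called peaks, and at what IDR threshold, was not given in the sources used here. The deposited lists hold a score per peak, the authors' peak strength, and the −log10 of a q-value, which was not used. The summit is the authors' offset from the peak start.

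Overlapping thresholded peaks were merged into regions with the summit of the strongest peak. Gene models came from Ensembl release 115 (WBcel235), with every transcript 5′ end of protein-coding genes, and sequence from RefSeq's copy of that assembly, after a check that no peak ended beyond a chromosome. Positions are counted from 1. A replicate match was a summit within 100 bp. Intervals are 95% exact binomial (Clopper-Pearson) intervals, cover counting only, and treat genes as independent. No test was made. Scripts ran in Python 3.11.15 and were tested on simulated peaks.

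The genes, lists and words were chosen with earlier results of these data known. Named in full are the 12 genes with the highest promoter scores and the 6 highest without a promoter region. Alternatives varied the windows, 5′ ends, merging, threshold, assignment, gene length and replicates.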

Additional observations from a re-analysis of the deposited data

Results flagged for a closer look

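Peaks outside the IDR-thresholded list drew attention at 3 genes that had no region in it. The pooled list, called on both replicates together, held 9 peaks from 5 kb upstream to 1 kb downstream of twk-17, 5 of them with a summit within 100 bp in both replicate lists and the strongest with a score of 137. At twk-23 it held 6, of which 5 were in both replicates, with a highest score of 137. At kqt-2 it also held 6, of which 3 were in both replicates, with a highest score of 138. All are K2P or KCNQ genes on the X, and their pooled scores were below the lowest score in the thresholded list, 147.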

How the results depend on the processing

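The share of potassium channel genes with a promoter region was above that of all genes in 10 of 11 alternatives, and below it with the stronger 50% of the regions (12.1 against 15.3%). It moved beyond its interval there, with the outermost 5′ end only (25.8%) and with the nearest gene at any distance (51.5%). For K2P genes and for the other channel genes the stronger 50% gave 12.8 and 10.5%. The wide-span share was 83.3% from 10 kb upstream to 2 kb downstream (57.7% of all genes) and 50% (33 of 66) with the stronger 50% (33.8% of all genes). Regions per kb were 0.103 from 2 kb upstream to the gene end, 0.104 from 10 kb upstream to 2 kb downstream (0.0693 over all genes) and 0.021 with the stronger 50%. The median promoter score was 302 in a narrower window (500 bp before a 5′ end to 100 bp after it) and 437 in a wider one (2000 bp before to 500 bp after). It was not computed with the stronger 50%, the nearest gene or a single replicate, which set its range or scale. The top peaks of a single replicate gave promoter shares of 34.8 to 36.4% over all 66 genes, 29.8 to 31.9% for K2P genes and 47.4% for the others with either replicate, wide-span shares of 69.7 to 71.2% and 0.0977 to 0.0996 regions per kb. The split by gene length was chosen after seeing the data. Read depth is unknown, so a gene without a region cannot be called unoccupied. No paired analysis was possible because there is 1 group.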

Other observations

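Regions per kb were high at several K2P genes. From 5 kb upstream to 1 kb downstream, twk-49 had 0.485, twk-48 had 0.465 and twk-30 had 0.461 regions per kb (percentile 97.9, 97.5 and 97.4 of all genes), against a median of 0.0996 over the potassium channel genes. At twk-48, on chromosome III, 4 regions with scores from 176 to 411 lay within 8.6 kb, and each was matched in both replicates. Those of 200 and 176 lay inside gpdh-2 and in its promoter window. At twk-49 the regions of 1060, 305 and 178 lay in promoter windows of neighbouring genes. At twk-30, 3 of the 4 lay in promoter windows of neighbouring genes.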
